A study of Mus musculus with 16 samples.

Results

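The genes of the mTOR complexes were followed in mouse CD8+ T cells after Cas9 targeting of Tardbp, which encodes the RNA-binding protein TDP-43. The 10 genes were Prr5, Prr5l, Rictor, Mapkap1, Mtor, Mlst8, Deptor, Rptor, Akt1 and Tsc2, out of 55450 annotated genes with deposited counts and 16640 that passed the filter on low counts. They were chosen by name, as parts of 1 pathway, with the difference between the groups already known, so their group differences are given as a description and without a test. All 10 passed the filter.

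Both groups held CD8+ T cells from OT-I transgenic mice, on the C57BL/6J strain, whose receptor recognises the ovalbumin peptide SIINFEKL. By the study's methods its OT-I mice lacked Rag1 or Rag2. The cells were electroporated with Cas9 and a scrambled guide (Control gRNA, 8 libraries) or a guide against Tardbp (Tardbp gRNA, 8 libraries), and were moved into C57BL6/J recipients. The recipients of both groups received antigen with anti-OX40 and anti-41BB, agonist antibodies to costimulatory receptors. CD8+ cells were sorted from spleen and lymph nodes after 4 days by the labels and somewhat earlier by the study's methods. The sort also used CD45 markers that tell donor from recipient cells. The study's results mention a stimulation of the purified cells, and whether it came before the RNA was taken is not clear. The age of the mice is given only as ranges for the study as a whole, from young to mature adults of both sexes, and not by library. The cells were purified from individual recipients. The edited cells were a mixed population rather than a clone, and whether recipients of a group shared donor cells was not stated, so the p-values below measure the spread between these libraries.

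The mechanistic target of rapamycin (mTOR) is a serine and threonine kinase that works in a pair of complexes. In mTORC1 it is joined by Raptor, the product of Rptor, and drives protein synthesis and growth when nutrients are present and the TSC complex, which holds the small GTPase Rheb in check, is turned off. In mTORC2 it is joined by Rictor, Sin1, the product of Mapkap1, and Protor-1 or Protor-2, the products of Prr5 and Prr5l, and it phosphorylates kinases such as Akt. In activated CD8+ T cells both complexes take part in the switch from rest to effector growth and in the choice between effector and memory fates.

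Per library, the annotated genes held 73640983 to 93881009 estimated counts in Control gRNA, against 56007954 to 94785382 in Tardbp gRNA. Tardbp itself had 172 to 207 CPM (counts scaled to the same library size) in Control gRNA, against 110 to 147 in Tardbp gRNA, or -0.51 ± 0.06 (SE) on the log2 scale in the edgeR fit (adjusted p = 8.06e-07), although edited transcripts can still be counted. The 6 CD8 T cell markers were present in every library, at a summed 3409 to 4272 CPM in Control gRNA, against 5212 to 6699 in Tardbp gRNA, and all 6 were higher in Tardbp gRNA. Cd4 stayed at or under 0.601 CPM, and the summed CD4 T cell markers were 1.38 to 9.90 CPM, mostly from Cd40lg. The summed B cell markers stayed at or under 18.4 CPM, and the B cell gene Pax5 was at 0 in 15 of 16 libraries. The summed red cell markers were 0.442 to 17.2 CPM in Control gRNA, against 9.03 to 181 CPM in Tardbp gRNA, with 4 of 4 tested genes higher, and the summed myeloid markers were 14.8 to 36.8 CPM and 19.3 to 80.2 CPM, with 2 of 6 higher. Natural killer markers summed to 12.6 to 63.4 CPM and 36.9 to 101 CPM, almost all from Eomes, which CD8 T cells also express. The deposited RNA concentration, given without a unit, was 34.9 to 197.1 in Control gRNA, against 10.1 to 24.0 in Tardbp gRNA. Since these ranges do not overlap, RNA concentration and group cannot be told apart, and in bulk RNA neither can fewer cells of a type and less RNA per cell.

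Prr5 and Prr5l are close relatives that bind Rictor, and the promoters at the starts of their main transcripts are shown here. Nearly all counts of Prr5 came from Prr5-201. Those of Prr5l were divided between Prr5l-210 and Prr5l-201, whose starts are neighbouring bases (chr2:101797707 and chr2:101797708). Prr5l-210 held 27.5% to 99.7% of them in Control gRNA, against 32.5% to 99.4% in Tardbp gRNA, so this division is unstable. Each run covers 250 bases before and 50 after the start (RefSeq, GRCm38), in the direction of transcription, with the GC box GGGCGG or its reverse complement in capitals. The Prr5 window is chr15:84680748-84681047 on the plus strand and the Prr5l window chr2:101797658-101797957 on the minus strand.
Prr5: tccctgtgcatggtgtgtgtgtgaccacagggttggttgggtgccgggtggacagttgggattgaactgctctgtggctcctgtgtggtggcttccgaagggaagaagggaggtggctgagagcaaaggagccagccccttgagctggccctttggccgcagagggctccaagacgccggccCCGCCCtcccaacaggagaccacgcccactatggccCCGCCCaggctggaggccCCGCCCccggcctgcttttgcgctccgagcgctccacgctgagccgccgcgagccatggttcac
Prr5l: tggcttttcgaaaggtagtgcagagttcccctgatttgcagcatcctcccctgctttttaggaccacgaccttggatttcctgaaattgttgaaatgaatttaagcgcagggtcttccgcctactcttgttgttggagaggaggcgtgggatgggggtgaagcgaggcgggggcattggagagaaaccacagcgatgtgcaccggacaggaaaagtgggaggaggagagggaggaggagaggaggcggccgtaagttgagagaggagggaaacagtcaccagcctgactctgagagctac

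The Prr5 window held 3 GC boxes and that of Prr5l none, while 35.7% of the 32851 promoter windows of this length held at least 1 on either strand. CCAAT was in the Prr5l window, with 1 match, and in 37.4% of all windows. The FoxO motif GTAAACA, the E-box CACGTG and TATAAA had no match in either window on either strand, which says only that these letters are not there. The windows had 17 CG dinucleotides for Prr5 and 11 for Prr5l, against a median of 7 over all windows. Among those windows they stood at percentiles 68.6 and 58.6, so neither was extreme. The Prr5 start lay 4 bases from that of Prr5-201 in GENCODE M21 and the Prr5l start coincided with that of Prr5l-210.

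Prr5 (ENSMUSG00000036106, chr15:84669620-84703673, plus strand) was the member with the largest fall. Its level was 24.0, 35.1 and 44.6 CPM (lowest, median and highest of 8) in Control gRNA, against 7.73, 11.6 and 17.8 CPM in Tardbp gRNA. Every Tardbp gRNA library was therefore below every Control gRNA library. The mean went from 34.6 ± 9.32 to 12.4 ± 3.05 CPM (SD, n = 8), which left 35.96% of the Control gRNA mean and a log2 fold change of -1.48 (SE 0.17). Of the 16640 genes tested, 92 fell further in log2 terms, and so did 8 of the 9038 genes whose log2 CPM averaged 3 or more.

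The Control gRNA libraries did not scatter evenly in Prr5. Libraries 1, 2, 4 and 5 had 24.0 to 28.2 CPM and libraries 3, 6, 7 and 8 had 41.9 to 44.6 CPM. The 3 Control gRNA libraries with the letter M in a deposited column headed sex had 24.0 to 25.9 CPM and the 5 with F had 28.2 to 44.6 CPM. In Tardbp gRNA the 5 M libraries had 7.73 to 17.8 CPM and the 3 F libraries 10.8 to 14.9 CPM. The interaction of group and letter for Prr5 was 0.67 on the log2 scale (SE 0.29), with an unadjusted p of 0.0371 and an adjusted p of 1 by edgeR. It was the only member with an unadjusted p under 0.05, and no gene of 16640 had a called interaction (0.0%), while 662 had an unadjusted p under 0.05 and DESeq2 called 5. The letters did not follow the RNA, since Xist, the RNA that silences an X chromosome, was at 9.82 to 69.0 CPM in M and 12.3 to 41.9 CPM in F libraries, and the Y-linked gene Ddx3y at 18.3 to 36.1 and 28.5 to 39.0 CPM.

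Prr5l, the paralog of Prr5 (ENSMUSG00000032841, chr2:101714285-101883027, minus strand), moved the other way. It had 5.99, 7.23 and 9.50 CPM in Control gRNA, against 11.7, 14.6 and 18.7 CPM in Tardbp gRNA, so that every Tardbp gRNA library was above every Control gRNA library. The means were 7.34 ± 1.09 and 15.04 ± 2.32 CPM (SD, n = 8), a log2 fold change of 1.03 (SE 0.11). Of all tested genes 979 had a higher log2 fold change, and 97 among those averaging 3 or more in log2 CPM.

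**Figure D1:**
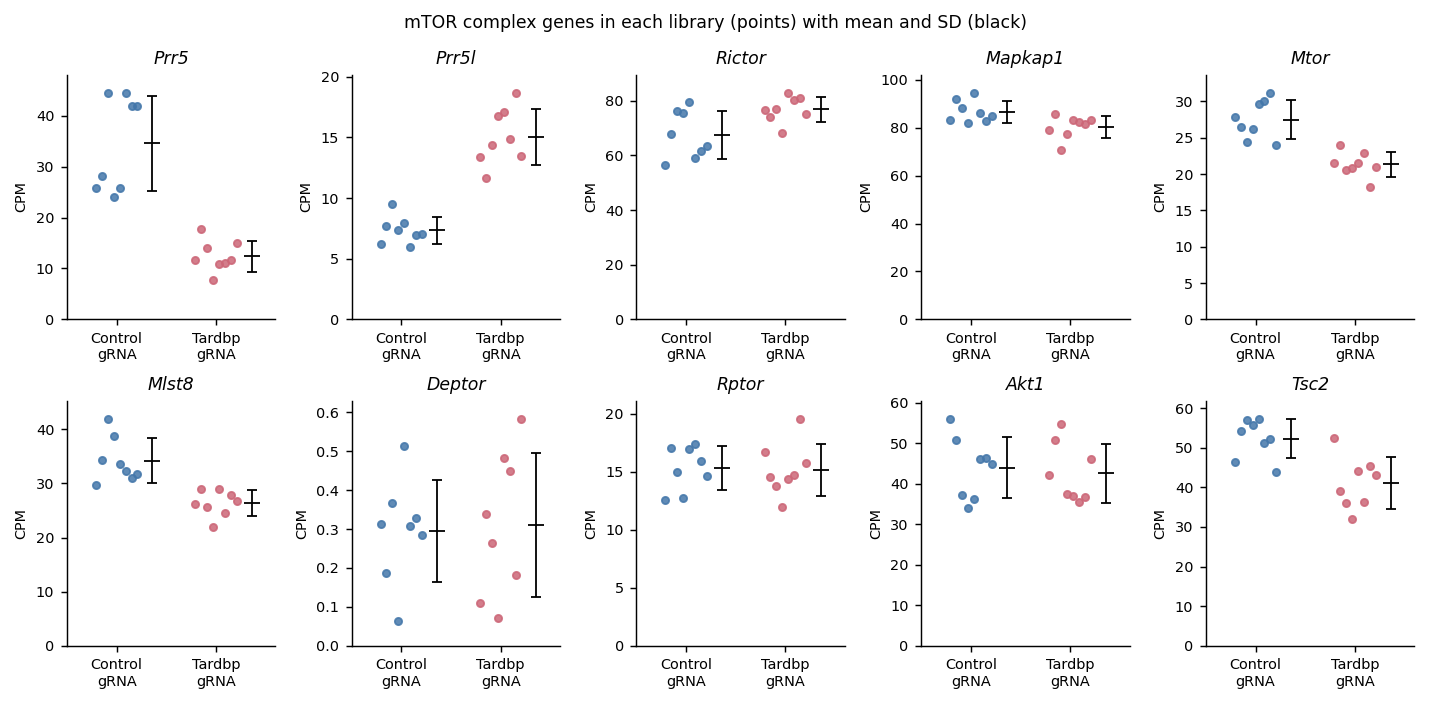
Level of each of the 10 genes (CPM, y axes from 0) in the 8 Control gRNA libraries (blue) and the 8 Tardbp gRNA libraries (red), with mean and SD in black. Prr5 sits at 24.0 to 44.6 CPM against 7.73 to 17.8 CPM, Prr5l at 5.99 to 9.50 CPM against 11.7 to 18.7 CPM, and of the other members only Mlst8 has groups that do not overlap.

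To set both paralogs on a scale per length, TPM values, in which counts are divided by transcript length and scaled to the same sum in each library, were rebuilt from the transcript counts. Prr5 had 31.2 ± 8.65 TPM and Prr5l 3.74 ± 0.861 TPM in Control gRNA, against 10.8 ± 2.80 and 7.27 ± 1.06 TPM in Tardbp gRNA (SD, n = 8). The share of Prr5 in the sum of both was 81.6% to 93.0% in Control gRNA, with a median of 89.3%, and 45.8% to 73.6% in Tardbp gRNA, with a median of 59.8%. In 1 Tardbp gRNA library, number 4, Prr5l was above Prr5 per length, at a Prr5 to Prr5l ratio of 0.845. In CPM, by contrast, the Tardbp gRNA mean of Prr5l (15.04) was above that of Prr5 (12.4). The sum of both stayed lower, at 24.7 to 45.6 TPM in Control gRNA, against 14.1 to 21.5 TPM in Tardbp gRNA. Against Rictor, their shared partner in mTORC2, the summed Prr5 and Prr5l RNA stood at a ratio of 2.29 ± 0.715 in Control gRNA, against 1.02 ± 0.170 in Tardbp gRNA, again without overlap of the libraries (1.47 to 3.41 and 0.811 to 1.32). The Prr5l TPM, and with it the share, sum and ratio, rests on the unstable division between Prr5l-201 (2290 bases) and Prr5l-210 (4296 bases). In the authors' splicing table the inclusion value (Psi) of the shorter 3′ end was 0.872 in Control gRNA, against 0.838 in Tardbp gRNA. More counts on the shorter model would raise Prr5l per length.

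**Figure D2:**
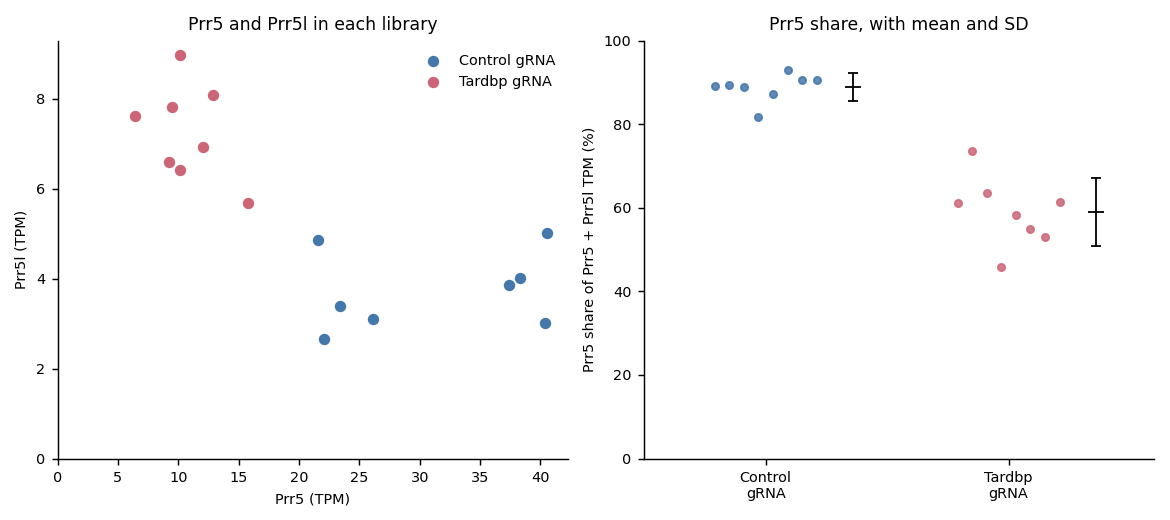
Left, Prr5 against Prr5l in TPM in each library, with Control gRNA in blue and Tardbp gRNA in red. Right, the share of Prr5 in the sum of both in percent, with mean and SD in black; the Control gRNA libraries lie at 81.6% to 93.0% and the Tardbp gRNA libraries at 45.8% to 73.6%.

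The scaffold and Sin1 of mTORC2 moved little. Rictor (chr15:6708379-6800401, plus strand), the scaffold that defines the complex, had 56.4, 65.6 and 79.6 CPM in Control gRNA, against 68.3, 76.8 and 82.9 CPM in Tardbp gRNA, with groups that overlap and a log2 fold change of 0.19 (SE 0.07). Mapkap1, which encodes the Sin1 subunit that holds substrates of mTORC2, had 82.0, 85.5 and 94.6 CPM and 70.7, 81.8 and 85.6 CPM, also with overlap and a log2 fold change of -0.11 (SE 0.05). Within mTORC2, the accessory subunits thus spanned from -1.48 to 1.03 while scaffold and Sin1 lay within 0.19 of no change. Its parts shared with mTORC1, Mtor and Mlst8, were both at -0.37. Akt1, a kinase that mTORC2 phosphorylates, had 34.0, 45.6 and 56.0 CPM against 35.6, 39.9 and 54.8 CPM, and its log2 fold change was -0.05 (SE 0.11).

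Among the parts shared by both complexes, Mtor, the kinase (chr4:148448611-148557683, plus strand), had 24.0, 27.2 and 31.2 CPM in Control gRNA, against 18.2, 21.2 and 24.1 CPM in Tardbp gRNA. Only the highest Tardbp gRNA library reached the lowest Control gRNA library, and the log2 fold change was -0.37 (SE 0.07). Mlst8 (chr17:24473551-24479078, minus strand), which encodes a subunit that binds the kinase domain, had 29.7, 33.0 and 41.9 CPM against 22.0, 26.5 and 29.0 CPM, without overlap, at a log2 fold change of -0.37 (SE 0.08). Deptor, which encodes an inhibitory partner of mTOR, was close to the limit of detection, with 0.0632 to 0.514 CPM in Control gRNA, 0.0723 to 0.583 CPM in Tardbp gRNA and 5 to 47 counts per library. A difference in Deptor was not detectable at this depth (log2 fold change 0.05, SE 0.43).

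On the mTORC1 side, Rptor (chr11:119602905-119899576, plus strand) had 12.6, 15.4 and 17.4 CPM in Control gRNA, against 11.9, 14.6 and 19.5 CPM in Tardbp gRNA, with overlapping groups and a log2 fold change of -0.01 (SE 0.10). Tsc2, which encodes the subunit of the TSC complex that turns off Rheb, had 43.9, 53.2 and 57.3 CPM against 32.1, 41.2 and 52.5 CPM. The Tsc2 groups overlap, and its log2 fold change was -0.35 (SE 0.09). Over all tested genes 46.8% were called at an adjusted p under 0.05 by edgeR, and 6 of the 10 members were, 2 of them higher (all genes 23.5%) and 4 lower (all genes 23.3%). Groups without overlap were found for 16.9% of all genes and for 3 of the 10. These counts follow from how the genes were chosen and nothing is read from them.

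Ordered by level per length in Control gRNA, Mapkap1 was highest at 55.6 ± 3.33 TPM and stood apart from the rest. Prr5 and Akt1 followed, at 31.2 ± 8.65 and 28.3 ± 4.67 TPM, with ranges that overlap. Mlst8, Tsc2 and Rictor came next at 17.4 ± 2.14, 16.4 ± 1.77 and 15.7 ± 2.60 TPM, and neighbours in this order did not differ beyond their ranges. Mtor at 7.79 ± 0.871 TPM was apart from them and from Rptor, which at 4.29 ± 0.584 TPM overlapped with Prr5l. In Tardbp gRNA Prr5 was the sixth in order, between Tsc2 at 12.7 ± 2.02 TPM and Mtor at 7.79 ± 0.871 TPM and overlapping with both, and Prr5l overlapped with Mtor and was apart from Rptor at 4.20 ± 0.738 TPM. Deptor was lowest in both groups, at 0.0570 ± 0.0253 and 0.0572 ± 0.0340 TPM. Rictor to Rptor ratios, which set the scaffolds of both complexes against each other, were 2.60 to 4.90 in Control gRNA, against an overlapping 3.32 to 5.48 in Tardbp gRNA.

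**Figure D3:**
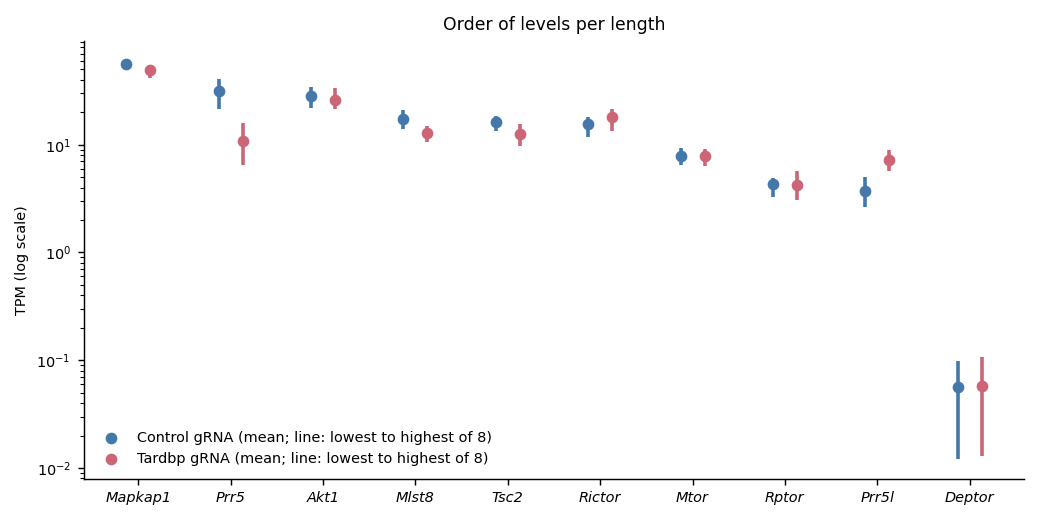
Mean level per length (TPM, log scale) of each gene in Control gRNA (blue) and Tardbp gRNA (red), with a line from the lowest to the highest of 8 libraries, ordered by the Control gRNA mean. Prr5 goes from 31.2 to 10.8 TPM and Prr5l from 3.74 to 7.27 TPM, while Mapkap1 stays highest and Deptor lowest.

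Mtor had the same level per length in both groups although its CPM was lower, because a short transcript model weighs more per length. Mtor-202 (8564 bases, 58 exons) encodes the full kinase, and Mtor-201 (1003 bases, 5 exons) runs past the splice site at the end of exon 5, at chr4:148454752, and stops in the intron. Its annotated coding part has 768 bases against 7647 in Mtor-202. The stretch that tells the models apart is shown from 20 bases before the end of exon 5, with the intronic coding bases of Mtor-201, chr4:148454733-148454818 on the plus strand, or exon 6 of Mtor-202 in capitals (GENCODE M21, GRCm38).
Mtor-201: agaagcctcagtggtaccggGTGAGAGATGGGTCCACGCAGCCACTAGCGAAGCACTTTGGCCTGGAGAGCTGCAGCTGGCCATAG
Mtor-202: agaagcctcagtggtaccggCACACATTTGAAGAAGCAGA

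Counts of Mtor-202 were 22.4 to 29.7 CPM in Control gRNA, against 16.1 to 21.4 CPM in Tardbp gRNA, without overlap. Counts of Mtor-201 were 1.07 to 3.03 CPM and 1.91 to 3.52 CPM, with overlap through Control gRNA library 1. The share of Mtor-201 in all Mtor counts was 4.36%, 5.59% and 10.9% (lowest, median and highest) in Control gRNA, against 8.32%, 13.3% and 16.3% in Tardbp gRNA. On the scale per length, Mtor-202 went from 4.95 ± 0.553 to 3.42 ± 0.355 TPM and Mtor-201 from 2.74 ± 0.870 to 4.26 ± 0.830 TPM. The authors' splicing table comes from the same reads, with 1 inclusion value (Psi) per group and no value per library. Of the 52 Mtor core exons beyond the end of Mtor-201, 51 had a lower Psi in Tardbp gRNA. Over all genes 69.9% of core exons did, and in Tsc2 37 of 38, so the direction alone is not particular to Mtor. The median Psi of the 52 was 0.955 in Control gRNA, against 0.918 in Tardbp gRNA. Their median difference was -0.033, against -0.0011 over all core exons. Differences were uneven along the gene, from -0.072 at chr4:148521292 to 0.0015 at chr4:148549368 near the 3′ end. Whether Mtor-201 accounts for them was not tested. The 4 core exons within Mtor-201 differed by 0.00078 at most in size, at a median Psi of 0.989 in both groups.

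**Figure D4:**
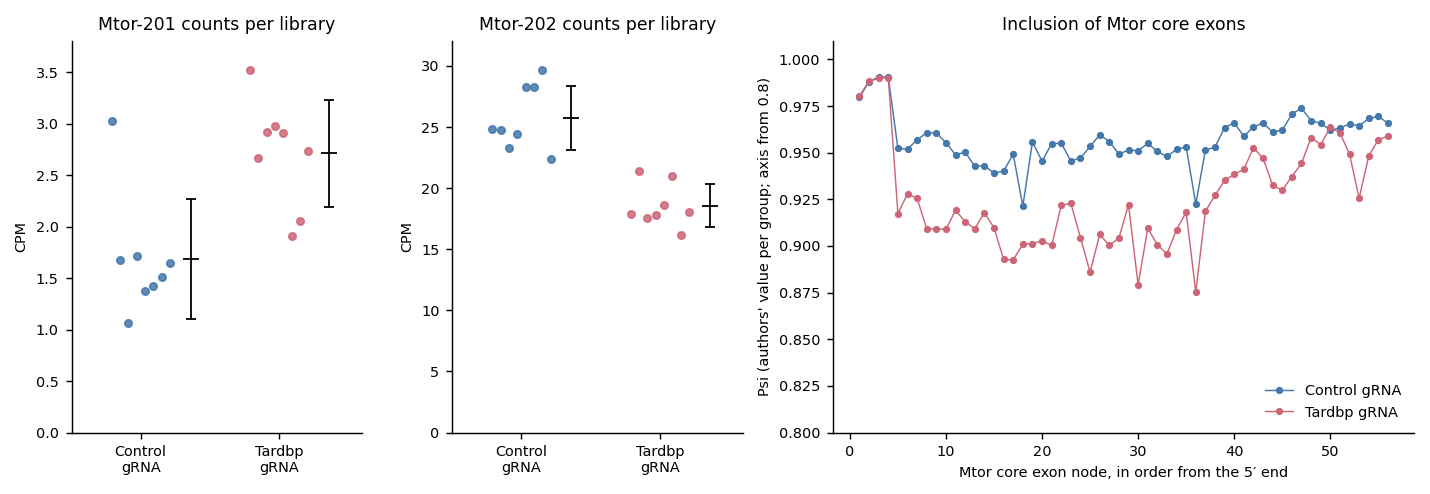
Left and middle, counts of the short model Mtor-201 and the full model Mtor-202 per library in CPM (y axes from 0, mean and SD in black). Right, Psi of each Mtor core exon in order from the 5′ end (y axis from 0.8), 1 value per group. The lines coincide over the 4 core exons within Mtor-201 and part at the next one, where the Tardbp gRNA value is lower. They come close again at some exons near the 3′ end.

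In Rptor, the model Rptor-211, annotated for nonsense-mediated decay, skips exon 10 of the 34 exons of Rptor-201. That exon, at chr11:119811945-119812020 on the plus strand, has 76 coding bases, which is not a multiple of 3, and is shown in capitals between 15 bases of each neighbouring exon.
Rptor exon 10: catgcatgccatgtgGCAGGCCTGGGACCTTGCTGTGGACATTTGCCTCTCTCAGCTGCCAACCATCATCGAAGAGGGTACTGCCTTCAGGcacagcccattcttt

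Rptor-211 held 0% of Rptor counts in 7 Control gRNA libraries and 13.8% in the other one. In Tardbp gRNA it held 0% in 3 libraries and 3.91% to 34.3% in the other 5. The Psi of this exon was 0.951 in Control gRNA, against 0.886 in Tardbp gRNA, the widest difference among the 32 core exons of Rptor. In Tsc2, Tsc2-203 held 0% to 2.30% of counts in Control gRNA, against 1.34% to 9.25% in Tardbp gRNA. That model ends where Tsc2 meets Pkd1, a gene on the opposite strand with 5.10 to 13.3 CPM in these libraries, and the library protocol was not stated to keep strand, so reads of the overlap cannot be told apart. Mlst8 counts were spread over 4 models, with Mlst8-201 at 11.2% to 50.2% in Control gRNA, against 4.33% to 64.6% in Tardbp gRNA. In Prr5, Prr5-201 held 98.1% ± 2.13 and 97.2% ± 3.43 of counts (SD, n = 8), so the lower level of Prr5 was that of its main model.

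Shares of all 36 member transcripts compared, in 9 genes, overlapped between the groups, where 1.7% of 30573 transcripts of all genes did not overlap. Of the 221 nodes of the 10 genes in the splicing table, 2 differed by over 0.1 in Psi, or 0.905%, against 4.70% of all 125520 nodes. Both were the alternative 3′ ends of Deptor (0.817 to 0.703 and 0.181 to 0.297), whose counts are too few to rest on. In Prr5l the widest difference was an alternative 5′ splice site at 0.697 in Control gRNA, against 0.609 in Tardbp gRNA, and in Prr5 no node differed by more than 0.0143 in size.

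Variation of Prr5 within a group was next compared with Tardbp RNA and with RNA concentration. Because the Control gRNA libraries fall into 2 clusters in Prr5, the relations were computed only among the 8 Tardbp gRNA libraries. Prr5 and Tardbp had r = 0.07, with an exact permutation p of 0.839 that stayed 0.839 after adjustment over 2 relations, and Spearman's rho was 0.21 (p = 0.619 by exact permutation, 0.840 adjusted). Leaving out the 2 libraries most distant from the median of Tardbp gave r = 0.36. Prr5 and RNA concentration had r = -0.16 (p = 0.681 by exact permutation, 0.839 adjusted) with a rho of 0.095 (p = 0.840 by exact permutation, 0.840 adjusted). Once the 2 libraries most distant in concentration were left out r was 0.83, so its sign and size rest on those libraries.

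The genes whose pattern was most like Prr5 were sought over 16 libraries after the mean of each group was removed, among 8972 other genes averaging 3 or more in log2 CPM. They were Map2k3, a kinase upstream of p38, with r = 0.85, Dkkl1 with r = 0.82 and Fam177a with r = 0.80. The most opposite were Xcl1, a chemokine of CD8 T cells, with r = -0.91, Crtam, an adhesion receptor of activated T cells, with r = -0.89, and Cd8a with r = -0.87. These values are a description, since they share libraries, scaling and the clusters of the Control gRNA group. In the 8 Tardbp gRNA libraries alone r was 0.87 for Map2k3, 0.90 for Dkkl1, 0.80 for Fam177a, -0.92 for Xcl1, -0.79 for Crtam and -0.91 for Cd8a. The genes were picked as extremes over libraries that include these 8, so large values here are partly built in. Between the groups Xcl1 went from 46.4 to 103 CPM in Control gRNA up to 124 to 350 CPM in Tardbp gRNA, and Dkkl1 from 29.5 to 41.5 CPM down to 12.6 to 25.4 CPM. The other members that could be compared had r between -0.33 for Prr5l and 0.39 for Akt1.

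To see how the rest of the pathway stood, 95 further genes in 6 lists were read from the fit over all genes, and 92 were tested. The lists were chosen with earlier results of these data known, so their counts are a description. Of these, 19 were higher (20.7%, all genes 23.5%) and 24 lower (26.1%, all genes 23.3%) in Tardbp gRNA by edgeR, and 49 did not pass. Their median log2 fold change was -0.08, against 0.05 over all genes tested, and 20 of them (21.7%, all genes 16.9%) had groups without overlap. With log2 RNA concentration as a covariate 8 were higher and 9 lower, while the call for all genes went from 7784 to 2698 genes. Without normalization factors the split turned to 25 higher and 19 lower, and over all genes from 3909 higher and 3875 lower to 4880 higher and 3134 lower.

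In the nutrient arm of mTORC1, which senses amino acids at the lysosome, 8 of 31 genes rose (25.8%, all genes 23.5%) and 6 fell (19.4%, all genes 23.3%). Their median was -0.01. The sestrins Sesn3 and Sesn1, which restrain mTORC1 when leucine is low or under stress, rose by 0.92 (SE 0.09, adjusted p = 2.2e-07 by edgeR) and 0.90 (SE 0.12, adjusted p = 6.16e-06). Sesn3 had 12.7 to 19.9 CPM in Control gRNA, against 26.8 to 35.2 CPM in Tardbp gRNA. Lamtor4, a part of the Ragulator scaffold on the lysosome, rose by 0.63 (adjusted p = 1.04e-07). Depdc5, a part of the GATOR1 complex that inhibits mTORC1, fell by 0.70 (SE 0.10, adjusted p = 2.22e-05) from 30.8 to 51.3 CPM to 18.6 to 28.5 CPM. The Rag GTPase gene Rraga fell by 0.44 (adjusted p = 0.000124), and Seh1l, a subunit of GATOR2 and of the nuclear pore, fell by 0.41 (adjusted p = 5.3e-06). With RNA concentration as a covariate Rraga (adjusted p = 0.122) and Seh1l (0.0675) did not pass, and with libraries 1 to 3 alone Rraga did not (0.0817).

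In the list of the TSC complex, AMPK and Lkb1, 2 of 12 tested genes fell (16.7%, all genes 23.3%), none rose (all genes 23.5%), and the median was -0.11. Those that fell were Prkaa1, a catalytic subunit of the energy sensor AMPK, at -0.20 (adjusted p = 0.00292) and Strada, a partner of Lkb1, at -0.20 (adjusted p = 0.0128), both by edgeR. Strada did not pass without normalization factors (adjusted p = 0.103). Neither passed with RNA concentration as a covariate (adjusted p = 0.341 for Prkaa1 and 0.129 for Strada) or with libraries 1 to 3 of each group alone (0.324 and 0.261).

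In the PI3K arm, which produces the lipid that recruits Akt to the membrane, 2 of 14 genes rose (14.3%, all genes 23.5%) and 7 fell (50%, all genes 23.3%). Their median was -0.24. Pik3ip1, an inhibitor of PI3K at the cell surface, had the largest rise of all pathway genes tested, with 7.99, 10.8 and 16.2 CPM in Control gRNA, against 25.6, 27.99 and 43.7 CPM in Tardbp gRNA. Its groups did not overlap, and it rose by 1.43 on the log2 scale (SE 0.14, adjusted p = 3.08e-07 by edgeR). Pik3ca, a catalytic subunit, rose by 0.43 (adjusted p = 0.000137). The phosphatase gene Inpp5d (SHIP1) at -0.43 (adjusted p = 0.000208), the catalytic subunit gene Pik3cg at -0.40 (adjusted p = 0.000636) and Pdpk1, the kinase that acts on Akt with mTORC2, at -0.32 (adjusted p = 0.00042) fell. With RNA concentration as a covariate Pik3ca (adjusted p = 0.0569) and Pdpk1 (0.0534) did not pass, and with libraries 1 to 3 alone Pik3ca (0.128), Pdpk1 (0.154) and Pik3cg (0.0524) did not.

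Among substrates of mTORC1 and their targets, 4 of 17 tested genes rose (23.5%, all genes 23.5%) and 4 fell (23.5%, all genes 23.3%), with a median of -0.09. Pdcd4, an inhibitor of translation that S6 kinase marks for decay, rose from 17.9 to 32.6 CPM to 43.7 to 61.0 CPM, at 1.14 (SE 0.10, edgeR adjusted p = 1.09e-07). Rps6kb2, an S6 kinase, rose by 0.72 (adjusted p = 0.000793) and its relative Rps6kb1 fell by 0.32 (adjusted p = 0.000266). Ulk1, a kinase that starts autophagy, rose by 0.41 (adjusted p = 0.0085). Eef2k, which slows translation elongation, fell by 0.90 (adjusted p = 0.000413) at levels of 1.47 to 5.13 CPM, and the initiation factor gene Eif4b fell by 0.53 (adjusted p = 4.88e-07). The calls for Rps6kb2, Rps6kb1, Ulk1 and Eef2k were lost with RNA concentration as a covariate (adjusted p = 0.0929, 0.0595, 0.341 and 0.0911) and with libraries 1 to 3 alone (0.136, 0.109, 0.322 and 0.162).

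Among substrates of mTORC2 and the FoxO factors, 5 of 12 genes rose (41.7%, all genes 23.5%) and none fell (all genes 23.3%), with a median of 0.18. Those that rose were the FoxO genes Foxo1, Foxo3 and Foxo4 and the kinase genes Sgk3 and Prkcb. Akt2, at -0.13 (SE 0.05), was at the limit of a call as lower (edgeR adjusted p = 0.05). Foxo3 and Foxo1, transcription factors that Akt keeps out of the nucleus, rose by 0.95 (SE 0.17, edgeR adjusted p = 0.000195) and 0.68 (SE 0.16, adjusted p = 0.00155). Foxo3 was low throughout, at 0.955 to 1.75 CPM in Control gRNA, against 1.91 to 3.71 CPM in Tardbp gRNA. Prkcb, a protein kinase C, rose by 0.61 (adjusted p = 0.00352) with groups that overlap. With RNA concentration as a covariate Foxo1 was at 0.94 and did not pass (edgeR adjusted p = 0.0624). With libraries 1 to 3 alone Foxo1 was at 0.71, Foxo3 at 0.70 and Prkcb at 0.64. None of these passed there (edgeR adjusted p = 0.169, 0.154 and 0.197).

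The TTT complex and its partners fold and assemble mTOR and related kinases. Of their genes 5 of 6 fell (83.3%, all genes 23.3%) and none rose (all genes 23.5%), with a median of -0.40. Tti1 went from 68.6 to 91.6 CPM to 43.1 to 58.8 CPM, at -0.62 (SE 0.07, edgeR adjusted p = 9.73e-07). The ATPase gene Ruvbl1 fell by 0.47 (adjusted p = 4.76e-06) and Telo2 by 0.42 (adjusted p = 4.49e-05). Both had groups without overlap, at 168 to 224 CPM against 134 to 149 CPM for Ruvbl1 and 29.8 to 36.98 CPM against 21.6 to 27.7 CPM for Telo2. Ruvbl1 did not pass with RNA concentration as a covariate (adjusted p = 0.0848), and Tti1 (0.0506) and Telo2 (0.0878) did not with libraries 1 to 3 alone.

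**Figure D5:**
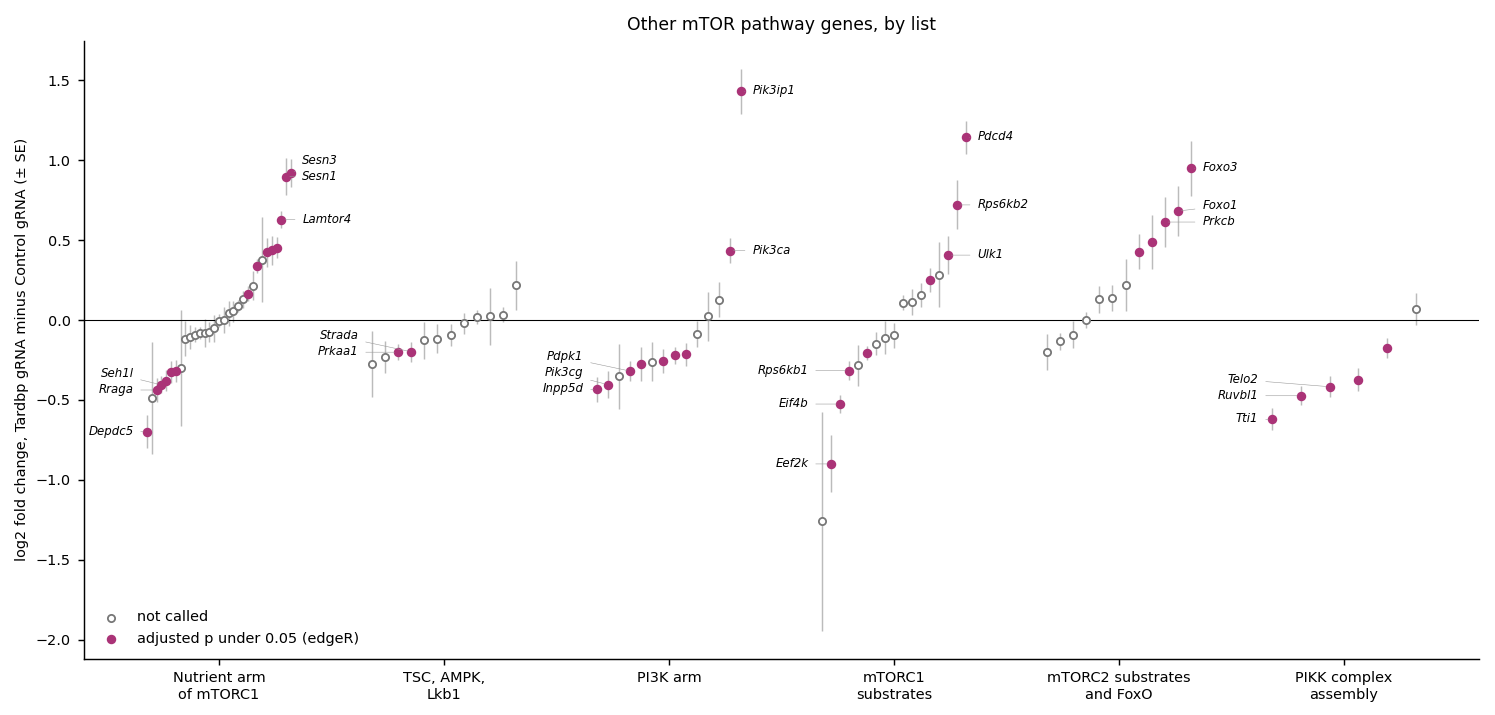
Log2 fold change of the 92 tested pathway genes (Tardbp gRNA minus Control gRNA, bars show SE), by list and ordered within it; filled points have an adjusted p under 0.05 by edgeR. Rises and falls occur in the nutrient arm and among mTORC1 substrates, the called mTORC2 substrates and FoxO genes are all above 0, and the called genes of kinase assembly are all below 0.

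The members' differences were also read without the 4 Tardbp gRNA libraries highest in haemoglobin RNA (50.04 to 179.9 CPM), a choice made after the values were seen. Prr5 then had a log2 fold change of -1.29 and Prr5l one of 0.92. With log2 RNA concentration as a covariate the values were -1.92 and 0.79. Because the concentration ranges of the groups do not overlap, this covariate fit cannot separate RNA concentration from group. The part of RNA concentration and of red cell, myeloid and CD8 marker RNA in these differences was not tested.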

How the data were processed

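RNA of sorted CD8+ T cells from 16 mouse libraries, 8 Control gRNA and 8 Tardbp gRNA by their titles, had been prepared with SMART-Seq v4 and Nextera XT. According to labels and methods, the authors mapped reads to mm10 (HISAT2 2.1.0, SAMtools 1.9) and deposited estimated counts per gene and transcript from StringTie 2.1.0, without normalization. The deposited fraction Psi came from Whippet, with 1 value per group; its columns are named only by letter and their order was taken from the study's text. The authors also deposited the count of read pairs (29714709 to 48164083 per library), the RNA concentration and the letter M or F. Columns with the authors' own differences and probabilities were not used, nor were 10 columns of each count table that match no sample here. A further 26431 lines that name no annotated gene, 0.0958% to 0.144% of counts, were left out.

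Counts, rounded to whole numbers, were fitted over all genes with edgeR 4.0.16 (quasi-likelihood, TMM, minimum count 10, two-sided, Benjamini-Hochberg) in R 4.3.3, checked on simulated data. TMM factors entered the CPM, and 2 was the prior count for log2 CPM. Transcript shares used models with a mean count of at least 20. Annotation was GENCODE M21, and promoters were RefSeq windows of GRCm38. Named pathway genes were the up to 3 highest and 3 lowest log2 fold changes per list among called genes averaging 1 or more in log2 CPM, next to the 3 genes most like and most unlike Prr5. The members and lists were chosen with earlier results of these data known. A relation within Control gRNA had been planned and was left out for its clusters. Alternatives were DESeq2 1.42.0, other scaling and filters, covariates, subsets and leaving out each library. Exact permutation tests went through every ordering of the libraries, with ranks for rho from SciPy 1.17.1. Counts include PCR copies, so depth is not a number of molecules.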

Additional observations from a re-analysis of the deposited data

Results flagged for a closer look

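Among the members, pathway genes and transcript shares named above, 80 groups of 8 libraries were examined for 1 library far from the other 7, and 9 had one, where chance would give about 4 (1 in 20). For pathway genes, Depdc5 was at 51.3 CPM in Control gRNA library 3, with the others at 30.8 to 39.5 CPM, and Pik3ip1 at 43.7 CPM in Tardbp gRNA library 3, with the others at 25.6 to 29.5 CPM. Pdcd4 was low in Tardbp gRNA library 2, at 43.7 CPM against 53.1 to 61.0 CPM. Control gRNA library 2 was high in both Foxo1 (31.1 CPM against 18.1 to 22.5 CPM) and Prkcb (53.5 CPM against 29.7 to 40.0 CPM). The calls of these 5 genes held without each library in turn.

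For transcript shares, Mtor-201 held 10.9% of Mtor counts in Control gRNA library 1, with the others at 4.36% to 6.84%. Prr5-202 held 6.35% of Prr5 counts in Control gRNA library 2, against 0% to 2.75%. Control gRNA library 6 was high in both Rptor-211 (13.8%, others at 0%) and Tsc2-203 (2.30%, others at 0% to 1.03%). The cause was not tested.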

How the results depend on the processing

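Over 28 alternatives the count of called genes (7784) left its range of 1.5 times under 2: 1697 genes with libraries 1 to 3 alone, where fewer libraries entered, and 2698 with log2 RNA concentration as a covariate, which separates the groups. The pathway counts (19 higher, 24 lower) likewise became 5 and 6, and 8 and 9. Without 1 library at a time they ranged over 7248 to 7734 genes, 18 to 20 higher and 23 to 29 lower. Of the 26 genes with a test that were named, 15 lost their call with libraries 1 to 3 alone, 12 with RNA concentration and 1 without normalization factors, and none changed direction. The other alternatives, among them libraries 4 to 8 alone (6853 genes called), lost no call of a named gene.

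Members moved by over 1 SD between libraries in 9 of 289 alternative values. With RNA concentration as a covariate the log2 fold changes were -1.92 for Prr5, 0.79 for Prr5l, 0.032 for Rictor, -0.18 for Mtor, -0.65 for Mlst8 and 0.20 for Akt1. With libraries 1 to 3 alone they were 0.72 for Prr5l and -0.19 for Mapkap1, and Mtor was at -0.0011 in TPM, through its short model. Without 1 library at a time Prr5 ranged from -1.57 to -1.42 and Prr5l from 0.96 to 1.10. Interactions with the letter numbered 0 by edgeR and 5 by DESeq2, an alternative added after seeing the data.

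The replicate block gave 7641 genes, 19 pathway genes higher and 25 lower, and -1.47 for Prr5. Deviations of libraries of the same number had low correlations, mostly above 0 (-0.0037 to 0.16, over 0.1 in 2 of 8 pairs). The numbers were therefore not taken as pairs, although libraries of different numbers were not compared. Depth limits Deptor most, at 5 to 47 counts per library.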
